A study of Mus musculus with 90 samples.

Results

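Ephx1 and Ephx2 encode the microsomal and the soluble epoxide hydrolase. They were chosen by name, each through the probe set (the group of short probes for a transcript) that the array's annotation assigns to that single gene symbol, and they are 2 of the 17097 genes measured. Ephx1 was read by probe set 1422438_PM_at (Entrez gene 13849, NM_010145) and Ephx2 by 1448499_PM_a_at (Entrez gene 13850, NM_007940), and each had 1 probe set, so no second probe set was at hand as a check.

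Epoxide hydrolases add water across the strained ring of an epoxide and so turn a reactive molecule into a diol. Inhaled styrene is oxidised by lung cytochromes P450, in mice largely by Cyp2f2 of the club cells of the airway lining, to styrene oxide. The microsomal enzyme turns styrene oxide into styrene glycol, while glutathione transferases compete for the same epoxide. The soluble enzyme acts mainly on epoxides of fatty acids made by other P450s, which are lipid mediators, although it can also accept styrene oxide.

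RNA of whole lung was measured in 90 adult male mice on a C57BL/6 background, 1 array per animal, in 18 groups of 5. There were 3 strains: wild type (WT), a knockout labelled CYP2F2(-/-) (KO), and a line labelled CYP2F2(-/-),2F1,SA13,2B6 (TG), which the study also calls CYP2F1 humanized. TG mice lack mouse Cyp2f2 as KO mice do and carry human transgenes, whose driving promoter the sources used here do not state. Each strain was kept in clean air (0 ppm, the controls) or given styrene by inhalation, 40 or 120 ppm, 6 hours a day on 5 days a week, for 1 or 4 weeks, and were killed on the morning after the final session. The design asks how the lung responds to styrene with and without the P450 that activates it, and here what the enzymes that remove the epoxide did.

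Values are log2 expression values, so a difference of 1 is a doubling on this scale. All comparisons come from one limma fit of the 18 group means, with Benjamini-Hochberg adjustment over the 17097 genes and a threshold of 0.05. Array medians ranged from 4.42 to 4.86, and 4 arrays had a limma weight under 0.25 (KO air at 1 week animal 3, TG air at 1 week animal 5, WT 120 ppm at 1 week animal 3, and KO 40 ppm at 4 weeks animal 1). The Cyp2f2 probe set read 12.73 to 13.39 in the 30 WT lungs, 11.53 to 12.28 in the 30 KO lungs and 11.58 to 12.13 in the 30 TG lungs, so WT did not overlap the others, although much signal remained. The sources used here do not state whether that probe set lies in the deleted part of the gene. Markers of the labelled tissue were strong, with means over all lungs of 13.83 for Sftpc of type II alveolar cells, 13.53 for Ager of type I alveolar cells and 13.77 for Scgb1a1 of club cells. In whole lung, fewer cells of a type and less RNA per cell cannot be told apart.

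The stretch just upstream of Ephx1 is shown as a description. One of the motifs searched is the antioxidant response element, through which the regulator Nrf2 acts. Whether any motif bears on the Ephx1 values was not tested. The stretch is the 250 bases before the RefSeq start of Ephx1, on the minus strand at chr1:181017570-181017819 (GRCm38.p6). It is written 5′ to 3′, with the only match to a searched motif in capitals.
Ephx1: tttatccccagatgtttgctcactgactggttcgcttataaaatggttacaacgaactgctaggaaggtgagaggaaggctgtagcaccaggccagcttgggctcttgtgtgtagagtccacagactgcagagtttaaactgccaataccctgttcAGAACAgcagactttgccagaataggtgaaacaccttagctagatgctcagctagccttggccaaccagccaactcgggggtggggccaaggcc
Both strands were searched for 5 motifs, and none of the matches is evidence of binding. The core of the antioxidant response element, TGACNNNGC, had 0 matches in this window and was present in 10.2% of the 32851 promoter windows of the same length. The E-box CACGTG of the clock activators had 0 matches, against 6.02% of windows, and the element TTANNTAA of the clock output factors Dbp, Tef and Hlf had 0, against 5.43%. The direct repeat bound by PPAR receptors, AGGTCA on either side of 1 free base, had 0 matches, against 0.03% of windows. The capitals mark 1 match to the glucocorticoid receptor hexamer TGTTCT, on the opposite strand 94 bases before the start, a motif held by 16.1% of windows. The window held 51.2% G and C, close to the median of 52.4% over all windows.

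Ephx1 was a bright signal. It averaged 10.44 over the 90 lungs and ran from 9.996 to 10.86, and its level was above that of 95.3% of genes. The 18 group means spanned 10.25 (TG air at 4 weeks) to 10.71 (WT 120 ppm at 4 weeks), a 1.37-fold range, and the pooled SD within groups was 0.17. In the order of the group means, no 2 neighbours lay further apart than 0.10, which is less than that SD. Differences between groups accounted for 36.6% of its variance. The 2 brightest groups were WT at 4 weeks with styrene, and the 2 dimmest were TG and KO air controls at 4 weeks.

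**Figure D1:**
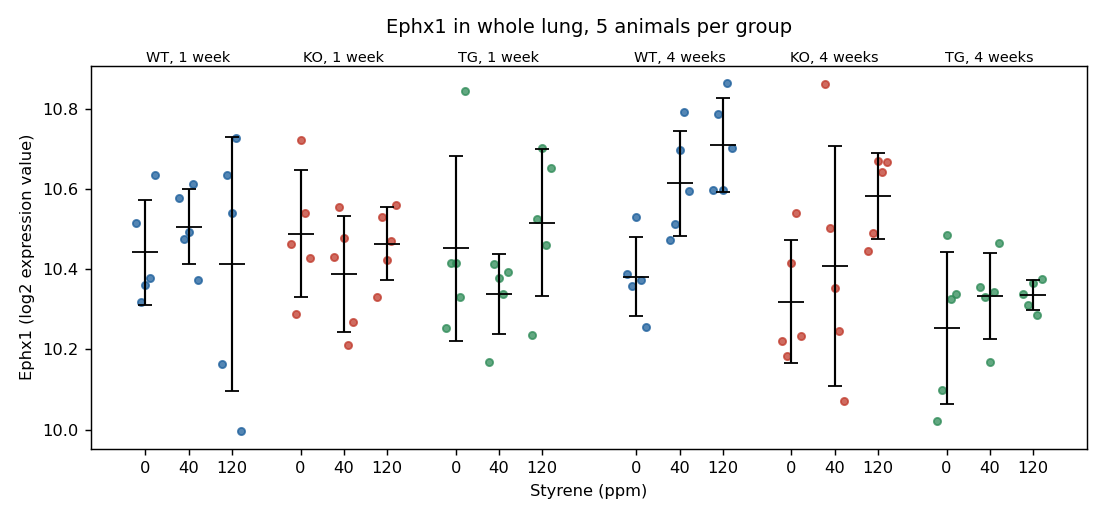
Ephx1 in each of the 90 lungs (points, log2 expression value) by strain, week and styrene dose, with bars giving the group mean and SD of 5 animals. WT lungs at 4 weeks run from a mean of 10.38 in air to 10.61 at 40 ppm and 10.71 at 120 ppm, differences that did not pass the test across all genes, while the 1-week groups overlap.

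In unexposed lungs Ephx1 differed between the 3 strains by less than the error. Its mean over 10 air controls was 10.41 in WT, 10.40 in KO and 10.35 in TG. KO minus WT was -0.01 (SE 0.07, 95% interval -0.16 to 0.14, limma adjusted p = 0.99), TG minus WT was -0.06 (interval -0.21 to 0.09, adjusted p = 0.83) and TG minus KO was -0.05 (interval -0.20 to 0.10, adjusted p = 1.00). Of all genes, 0.275% passed in KO against WT, 0.287% in TG against WT and 0.135% in TG against KO. The 3 intervals run in all from 0.87-fold to 1.10-fold.

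After 1 week no change of Ephx1 passed the test in any strain. In WT the 5 air controls read 10.52, 10.32, 10.36, 10.38 and 10.64. The 5 WT lungs at 40 ppm read 10.58, 10.48, 10.49, 10.61 and 10.37, and those at 120 ppm read 10.16, 10.64, 10.54, 10.73 and 9.996. The groups overlap in part: at 120 ppm 2 lungs lay above all 5 controls and 2 below all of them, and the SD was 0.32 against 0.13 in air. Changes in WT were 0.06 at 40 ppm (interval -0.14 to 0.27, limma adjusted p = 0.84) and -0.03 at 120 ppm (interval -0.24 to 0.18, adjusted p = 0.93), in comparisons where 4.67% and 6.79% of all genes passed. In these WT comparisons all 7 measured markers of the dividing cell list rose at both doses, with median changes of 1.92 and 1.88, and at 120 ppm 4 of 8 endothelial cell markers fell. In animals 1 and 5 at 120 ppm, where Ephx1 was lowest, the dividing cell mean was 7.42 and 8.49, and in animals 2, 3 and 4 it was 7.42, 5.26 and 6.45. The part of these cells in the Ephx1 values was not tested. In KO mice the changes were -0.10 and -0.03, and in TG mice -0.11 and 0.06, with none past the threshold. Few genes passed there at all: 0% in KO at both doses and in TG at 40 ppm, and 0.0468% in TG at 120 ppm.

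After 4 weeks the Ephx1 means were higher with styrene in WT at both doses and in KO at 120 ppm, with unadjusted p under 0.05, and none of these differences passed adjustment over genes. In WT the air controls read 10.39, 10.36, 10.53, 10.37 and 10.26, the 40 ppm lungs 10.47, 10.51, 10.70, 10.79 and 10.59, and the 120 ppm lungs 10.60, 10.79, 10.60, 10.86 and 10.70. All 5 lungs at 120 ppm lay above all 5 controls, and 3 of the 5 at 40 ppm did. The change at 120 ppm was 0.33 (SE 0.10, interval 0.12 to 0.54, 1.26-fold; limma adjusted p = 0.24). An exact two-sided permutation test gave 0.00794, the smallest value that 5 against 5 allows, and 0.19 after adjustment over the 24 exposure changes of the pair of genes. Of all genes, 1.23% had every lung at 120 ppm above every control, and 0.439% passed the adjusted test in this comparison. The change at 40 ppm was 0.23 (interval 0.02 to 0.44, limma adjusted p = 0.94), where 0.152% of genes passed, and 120 minus 40 ppm was 0.10 (interval -0.11 to 0.30).

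Array weights, which count uneven arrays for less, moved the WT change at 120 ppm and 4 weeks to 0.32 with an adjusted p of 0.012. The added covariate of alveolar type I markers moved it to 0.38 with an adjusted p of 0.0077, and over the other alternatives and each animal left out it was not called.

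KO lungs at 4 weeks read 10.22, 10.18, 10.42, 10.54 and 10.23 in air and 10.44, 10.49, 10.67, 10.64 and 10.67 at 120 ppm. The change was 0.26 (SE 0.10, interval 0.06 to 0.47; limma adjusted p = 1.00), and 3 of the 5 exposed lungs lay above all controls. Only 0.0234% of all genes passed there. The KO change at 40 ppm was 0.09 (interval -0.12 to 0.30), with 1 lung at 10.86, the array with the lowest weight, and 1 at 10.07. Without the lung at 10.86 it was -0.03.

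TG lungs at 4 weeks read 10.02, 10.10, 10.48, 10.32 and 10.34 in air, and at 120 ppm 10.34, 10.31, 10.37, 10.29 and 10.38. The exposed lungs lay within the range of their controls and in a much narrower band, with an SD of 0.04 against 0.19. The change was 0.08 at both doses (interval at 120 ppm -0.13 to 0.29; limma adjusted p = 1.00), and 0.0117% of all genes passed at 120 ppm.

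**Figure D2:**
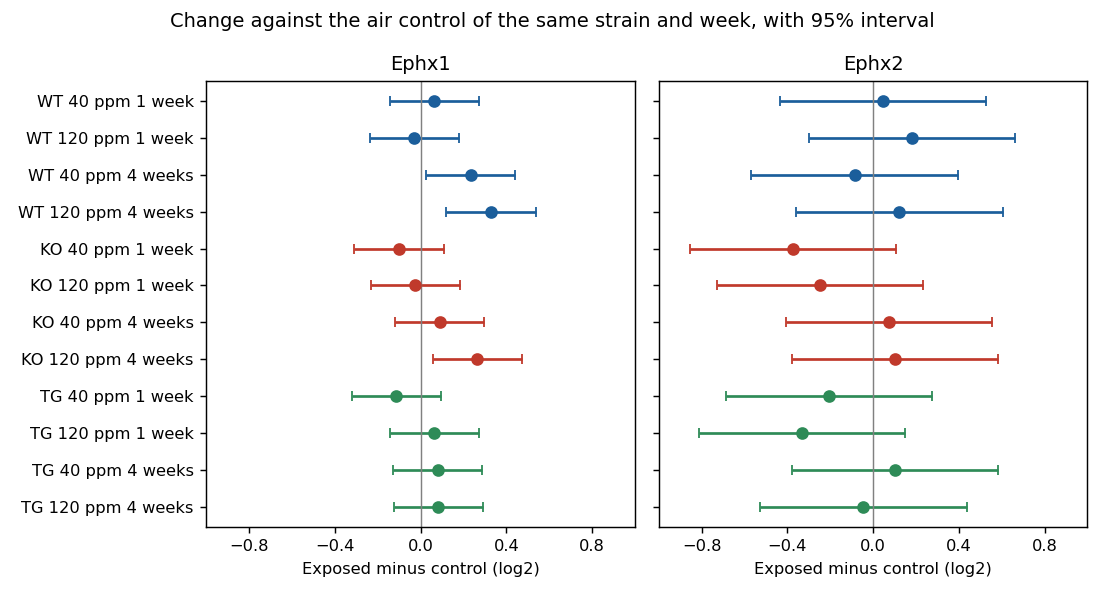
Change of Ephx1 (left) and Ephx2 (right) against the air control of the same strain and week, in log2 units, with 95% intervals from the limma fit (5 animals against 5). For Ephx1 the intervals of WT at 40 and 120 ppm and KO at 120 ppm, all at 4 weeks, lie above 0, but none passed the adjustment over 17097 genes. For Ephx2 every interval includes 0 and is wider than any of Ephx1.

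No test of the difference between these changes passed. The WT change at 120 ppm was 0.36 larger at 4 weeks than at 1 week (interval 0.06 to 0.65, limma adjusted p = 0.46, with 0.883% of all genes passing), and in KO it was 0.29 larger (interval -0.01 to 0.58). With the added alveolar type I covariate the WT difference was 0.48 with an adjusted p of 0.018. TG minus WT in the 120 ppm change at 4 weeks was -0.25 (interval -0.54 to 0.05, adjusted p = 1.00, with 0.0292% of genes passing), and KO minus WT was -0.06 (interval -0.36 to 0.23). So the higher values in WT and KO and the flat values in TG were not shown to differ between strains.

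A further comparison, chosen after the values were seen, averaged the change over the 3 strains. At 120 ppm and 4 weeks Ephx1 was 0.23 higher (SE 0.06, interval 0.10 to 0.35; limma adjusted p = 0.059), and 0.322% of genes passed upward. The corresponding values were 0.13 at 40 ppm and 4 weeks (adjusted p = 0.68), -0.05 at 40 ppm and 1 week, and 0.00 at 120 ppm and 1 week. The average at 120 ppm and 4 weeks fell on the other side of the threshold under several alternatives, with adjusted p from 0.00034 with array weights to 0.060, and from 0.031 to 0.14 with each animal left out. The 3 animals whose omission brought it past the threshold were air controls at 4 weeks: WT animal 3, KO animal 4 and TG animal 3.

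Ephx1 in air controls at 4 weeks against 1 week differed by -0.06 in WT, -0.17 in KO and -0.20 in TG, none past the threshold (limma adjusted p from 0.35 to 0.88). Of the 17097 genes, 23 passed as higher and 86 as lower in WT, 27 and 65 in KO, and 2 and 50 in TG. With the poly-A control spots as a covariate the KO difference became -0.25 with an adjusted p of 0.029.

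Ephx2 was a dim signal. It averaged 5.10, a level above 40.3% of genes, and ran from 4.32 to 6.48 over the 90 lungs. Group means spanned 4.83 (WT air at 1 week) to 5.40 (KO air at 1 week), a 1.49-fold range, against a pooled SD of 0.39, and no 2 neighbours in the order of the groups lay further apart than 0.11. Differences between groups accounted for 13.96% of the variance, a share that by itself shows no difference, since sampling adds to it. Its SD was larger than that of 90.3% of the 1000 genes nearest to it in mean level, against 64.2% for Ephx1.

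**Figure D3:**
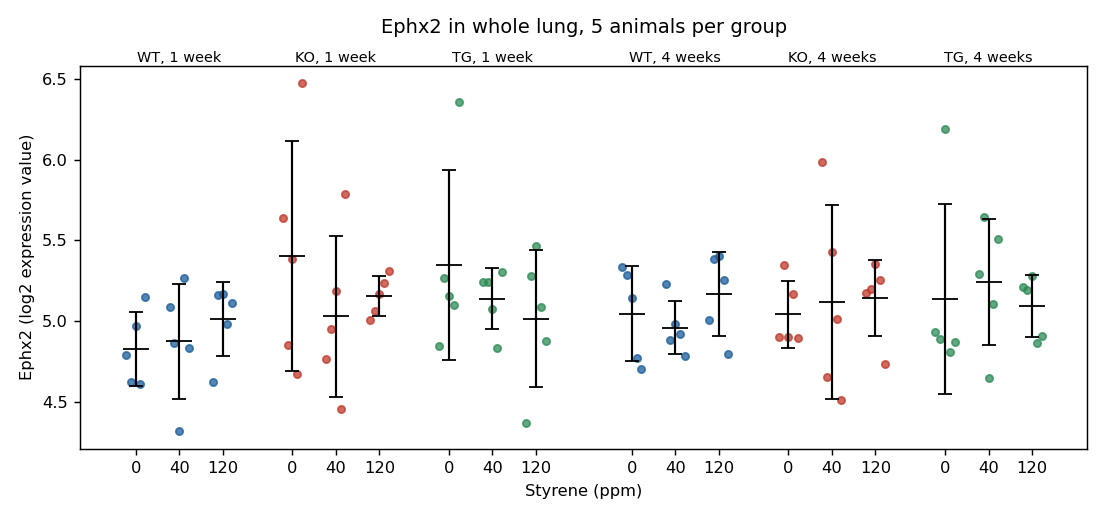
Ephx2 in each of the 90 lungs (points, log2 expression value) by strain, week and dose, with bars giving the group mean and SD of 5 animals. The highest lungs, at 6.48, 6.36 and 6.19, are single animals of the KO and TG air groups, and the remaining points overlap between all groups.

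No exposure changed Ephx2 past the threshold, and no p was under 0.05 before adjustment. In WT at 4 weeks the air controls read 5.34, 5.28, 5.14, 4.77 and 4.70, and the lungs at 120 ppm 5.01, 5.39, 5.40, 5.25 and 4.80. The ranges overlap almost wholly, and the change was 0.12 (SE 0.24, interval -0.36 to 0.60). Over the 12 exposure changes Ephx2 ran from -0.37 (KO 40 ppm at 1 week, interval -0.86 to 0.11) to 0.18 (WT 120 ppm at 1 week), with limma adjusted p from 0.63 to 1.00. The lowest of these was -0.11 without KO air at 1 week animal 5, and -0.23 or -0.56 without animal 4 or animal 5 of KO 40 ppm at 1 week. The 12 intervals run in all from 0.55-fold to 1.58-fold, and a single comparison had a 95% half-width of 0.48. In 5 of these 12 comparisons 0% of genes passed in limma. They were KO at 40 ppm at 1 and 4 weeks, KO at 120 ppm and 1 week, and TG at 40 ppm at 1 and 4 weeks, with 611, 537, 881, 757 and 1278 genes at an unadjusted p under 0.05. In TG at 120 ppm and 1 week 0.0468% passed.

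Averaged over the 1- and 4-week controls, unexposed KO and TG lungs had higher Ephx2 means than WT, with 95% intervals that include 0. At 4 weeks alone the means were 5.04 in KO, 5.05 in WT and 5.14 in TG. At 1 week they were 5.40 in KO, 5.35 in TG and 4.83 in WT. Whether the strain difference changed between the weeks was not tested. Averaged over both weeks, KO minus WT was 0.29 (SE 0.17, interval -0.05 to 0.63, limma adjusted p = 0.86), and TG minus WT was 0.30 (interval -0.04 to 0.64, adjusted p = 0.61). At 1 week the WT air controls read 4.79, 4.62, 4.97, 4.61 and 5.15, the KO controls 5.64, 4.85, 5.38, 4.67 and 6.48, and the TG controls 4.84, 5.27, 5.16, 5.10 and 6.36. A single animal stood at the top of both KO and TG. At 4 weeks the TG controls read 4.94, 4.89, 6.19, 4.81 and 4.87, again with 1 lung apart. Without KO air at 1 week animal 5 the KO difference was 0.15. Without TG air at 1 week animal 5 the TG difference was 0.18, and without TG air at 4 weeks animal 3 it was 0.17.

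Ephx2 moved with the mean of the fat cell markers from animal to animal, though the markers themselves did not all move alike. Fat cells are not part of the lung's airways or alveoli but lie around the large airways and the heart. Of 8 listed markers 5 were measured, and their mean ran from 3.47 to 7.16 over the lungs. Once group means were subtracted, Ephx2 and this mean correlated at Pearson r = 0.77 and Spearman rho = 0.76 over 90 lungs (permutation within groups, two-sided, p = 1e-05 for each, the smallest the resamples can give; 0.00014 and 0.00028 adjusted over the 28 relations of 14 marker lists and 2 genes). Without the 2 lungs farthest from the median of the marker mean, r was 0.72. The 3 lungs with the highest Ephx2 ranked 2, 4 and 1 of 90 in the marker mean. They read 9.87, 8.81 and 9.90 for Adipoq, the hormone adiponectin of fat cells, whose mean over all lungs was 6.62. Lep, another fat cell hormone, averaged 2.42 over all lungs and read 2.61, 2.43 and 2.52 in these lungs. Ucp1, also on the list, read 3.82, 4.397 and 7.54 there. Not every lung kept to this order. WT 120 ppm at 1 week animal 2 ranked 90 in the marker mean and 39 in Ephx2. WT 120 ppm at 4 weeks animal 2 ranked 79 in the marker mean and 12 in Ephx2. Heart and skeletal muscle markers (r = 0.52, rho = 0.48, permutation adjusted p = 0.00019) and fibroblast markers (r = 0.52, rho = 0.49, adjusted p = 0.00021) moved with Ephx2 as well, and hepatocyte markers gave r = 0.09 and rho = 0.28 (permutation adjusted p = 0.72 and 0.055).

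**Figure D4:**
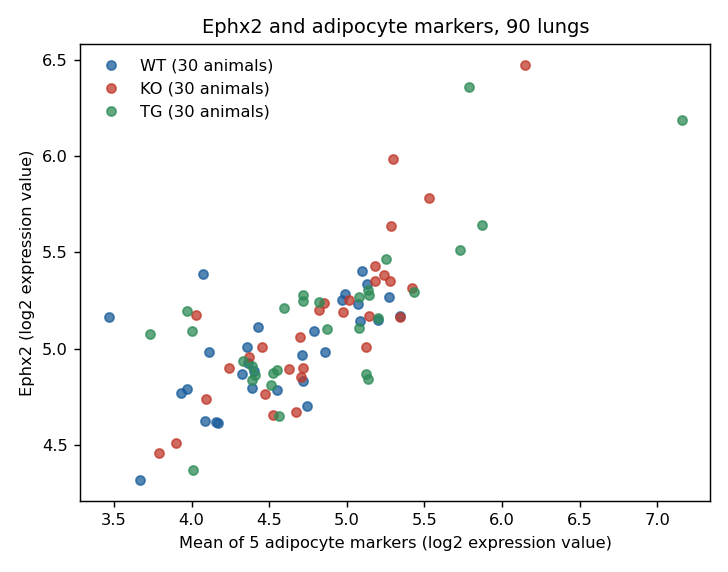
Ephx2 (vertical) against the mean of 5 adipocyte markers (horizontal), both as log2 expression values, in 90 lungs coloured by strain. The lungs with Ephx2 at 6.48, 6.36 and 6.19 have marker means of 6.15, 5.79 and 7.16, the lung in the lower left corner has 4.32 for Ephx2, and r is 0.77 once group means are subtracted.

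With the adipocyte marker mean as a covariate, an alternative chosen after the values were seen, the unexposed differences of Ephx2 became 0.08 for KO minus WT and 0.01 for TG minus WT. The standard error of a comparison of 5 against 5 fell from 0.24 to 0.16. The change averaged over strains at 120 ppm and 4 weeks moved from 0.06 to 0.24 (limma adjusted p = 0.40). The covariate shares its animals and arrays with Ephx2, and whether Ephx2 RNA came from fat cells was not tested.

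Ephx1 correlated with the fat cell markers at r = 0.36 (rho = 0.33, permutation adjusted p = 0.017) and moved against the type I alveolar markers (r = -0.62, rho = -0.50; permutation p = 1e-05 and 4e-05, adjusted 0.00014 and 0.00037 over the 28 relations; r = -0.54 without the 2 farthest lungs). KO 40 ppm at 4 weeks animal 1 had a type I mean of 11.41 and Ephx1 at 10.86. TG air at 1 week animal 5 had 11.47 and 10.84, and KO air at 1 week animal 3 had 11.53 and 10.72. These arrays had weights under 0.25 and the highest poly-A control means, 8.03, 7.57 and 7.56. The other array under 0.25, WT 120 ppm at 1 week animal 3, had 11.66 and 10.54. WT 120 ppm at 1 week animal 2, whose array weight was 0.46, had a type I mean of 11.46 and Ephx1 at 10.64. The part of array quality in this relation was not tested. Smooth muscle markers ran with Ephx1 (r = 0.42, rho = 0.32, permutation adjusted p = 0.0090). Club cell markers, the site of Cyp2f2, gave r = 0.30 (rho = 0.24, permutation adjusted p = 0.076). The type I marker mean was 11.72 ± 0.06 (SD, n = 5) in WT air lungs at 4 weeks and 11.76 ± 0.05 in those at 120 ppm, and the club marker mean was 11.56 ± 0.16 and 11.50 ± 0.10, so neither differed by more than its spread where Ephx1 was highest.

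The genes with the pattern most like Ephx1 over the 18 group means, among 10257 compared, were Itpr3 (r = 0.80), a calcium channel of the endoplasmic reticulum, BC064078 (r = 0.78), Gstm1 (r = 0.76), a glutathione transferase, Ggt6 (r = 0.76), of the gamma-glutamyltransferase family, and Lefty1 (r = 0.75), a secreted inhibitor of Nodal signalling. Within groups, over the 90 lungs, the same genes correlated with Ephx1 at 0.47, 0.22, 0.43, 0.44 and 0.45. For Ephx2 the most alike were Cyp2e1 (0.84), a P450 that also oxidises styrene, Fabp3 (0.80), a fatty acid carrier of muscle and brown fat, Adipoq (0.80), Mlph (0.76), which links pigment granules to motors, and Fst (0.74), an activin-binding protein. Within groups Cyp2e1, Fabp3 and Adipoq kept r of 0.74, 0.71 and 0.69, Mlph 0.45, and Fst -0.04. The genes closest to Ephx2 within groups were Cox8b (0.79), a muscle and brown fat subunit of cytochrome oxidase, Aoc3 (0.77), an amine oxidase of fat and vessels, and Thrsp (0.76), a lipogenic protein. All these values come from the same arrays and are a description.

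The enzymes that make styrene oxide or conjugate it were read from lists of P450s and of glutathione enzymes. Of 10 measured P450s and their electron donors, 0 rose and 2 fell in WT at both doses at 1 week, where 4.67% (40 ppm) and 6.79% (120 ppm) of all genes passed in either direction. Cyp2f2 fell by 0.33 at 40 ppm and 0.28 at 120 ppm, and Cyp4b1, another club cell P450, fell by 0.36 and 0.32. The list's median change was 0.07 and 0.05, against 0.03 and 0.00 over all genes. At 4 weeks 0 of the 10 passed at either dose in limma (1 at an unadjusted p under 0.05 each). Only 0.152% (40 ppm) and 0.439% (120 ppm) of all genes passed there.

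Of 21 glutathione enzymes, 2 rose in WT at 40 ppm and 1 week, 3 at 120 ppm and 1 week and 1 at 120 ppm and 4 weeks, and 0 fell. Of all genes 4.67%, 6.79% and 0.439% passed in these comparisons. Gsto1, an omega-class transferase, rose by 0.77, 0.85 and 0.65 in these comparisons, Gclc, the first enzyme of glutathione synthesis, by 0.50 and 0.37 at 1 week, and Gstt2 by 0.56 at 120 ppm. At 120 ppm and 1 week the list's median was 0.15, against 0.00 over all genes. Gstm1, named above for its pattern, changed by 0.30 in WT at 120 ppm and 4 weeks (limma adjusted p = 0.68).

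Nrf2 is a regulator that switches on enzymes against reactive electrophiles, and Ephx1 is often counted among its targets. Of 19 other measured targets, 5 rose in WT at 40 ppm and 1 week and 8 at 120 ppm and 1 week, with medians of 0.20 and 0.19, and 2 rose at 120 ppm and 4 weeks, with a median of 0.04. The shares of all genes passing were 4.67%, 6.79% and 0.439%, and the medians over all genes were 0.03, 0.00 and 0.01. Nqo1, a quinone reductase, rose by 0.66 at 40 ppm and 1.12 at 120 ppm at 1 week (limma adjusted p = 5.65e-06 at 120 ppm) and by 0.76 at 120 ppm and 4 weeks. Akr1b8, an aldo-keto reductase, rose by 0.69 and 0.90 at 1 week, and Cbr3, a carbonyl reductase, by 0.58 at 120 ppm and 1 week and by 0.71 at 4 weeks. In WT at 1 week Ephx1 changed by 0.06 at 40 ppm and -0.03 at 120 ppm. At 4 weeks it changed by 0.33 at 120 ppm. In unexposed KO and TG lungs Nqo1 and the glutathione peroxidase Gpx2 were lower than in WT, Gpx2 by a difference of -1.20 and -1.22. Ephx1 differed there by -0.01 and -0.06, and 0.275% and 0.287% of all genes passed. Whether Nrf2 bears on the Ephx1 values was not tested.

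**Figure D5:**
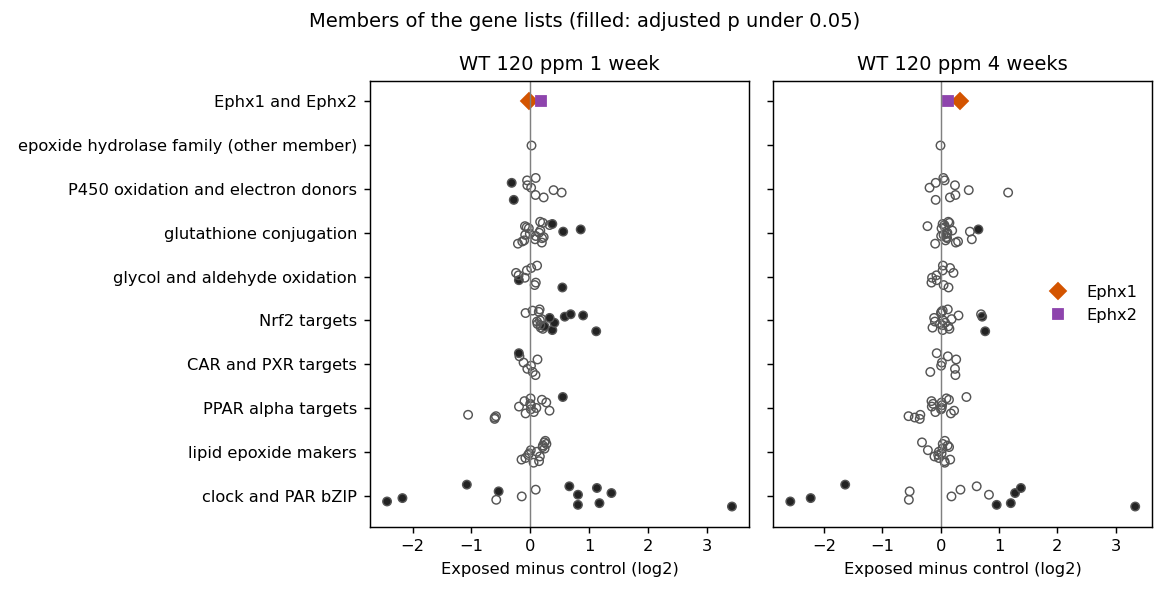
Changes in WT lungs at 120 ppm against air (log2) at 1 week (left) and 4 weeks (right) for the measured genes of each list, 1 point per gene, filled where the limma adjusted p is under 0.05. Ephx1 (diamond) lies at -0.03 and 0.33, Ephx2 (square) at 0.18 and 0.12, and neither is past the threshold, while 8 of 19 Nrf2 targets are at 1 week.

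Downstream of the hydrolases, 10 alcohol and aldehyde enzymes that could act on styrene glycol and its products were measured. Adh1, an alcohol dehydrogenase, rose in WT at 1 week by 0.43 at 40 ppm and 0.54 at 120 ppm, and Aldh1a1, an aldehyde dehydrogenase, fell by 0.20 at 120 ppm. Of all genes 4.67% at 40 ppm and 6.79% at 120 ppm passed there. Aldh1a7, a close relative of Aldh1a1 and a club cell marker, was lower in unexposed KO and TG lungs, by a difference of -0.32 and -0.25. Of all genes 0.275% and 0.287% passed in these strain comparisons. At 4 weeks 0 of the 10 alcohol and aldehyde enzymes passed in WT in limma, with 1 and 0 at an unadjusted p under 0.05 at 40 and 120 ppm. Only 0.152% and 0.439% of all genes passed there.

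The calls in the lists nearest to Ephx2 are to be read against the share of all genes that passed in WT. That share was 4.67% and 6.79% at 40 and 120 ppm at 1 week, and 0.152% and 0.439% at 4 weeks. Of 15 measured makers of lipid epoxides and related eicosanoids, 0 passed in WT in the 4 exposure comparisons in limma (1, 2, 0 and 0 at an unadjusted p under 0.05). Of 17 targets of PPAR alpha, a fatty acid sensor, Vnn1 rose by 0.45 and 0.55 in WT at 1 week and Angptl4, an inhibitor of lipoprotein lipase, fell by 1.47 at 40 ppm. Of 8 targets of the drug sensors CAR and PXR, 1 fell in WT at 120 ppm and 1 week, Aldh1a1, where 6.79% of all genes passed. Of the other epoxide hydrolases 1 of 3 was measured, Lta4h, which makes leukotriene B4, and its changes in WT lay between -0.01 and 0.08.

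Of 14 measured clock genes, 5 rose and 3 fell in WT at 120 ppm and 4 weeks, where 0.439% of all genes passed, among them Dbp, a clock output factor, which rose by 3.33, Arntl, the clock activator, which fell by 2.57, and Npas2, its partner, which fell by 2.22. In KO at 120 ppm and 4 weeks Dbp rose by 2.44 and Arntl fell by 1.45, and in TG Dbp rose by 2.12. In KO 2 of the 14 rose and 2 fell, and in TG 1 rose and 1 fell. The shares of all genes passing were 0.0234% in KO and 0.0117% in TG. At 1 week in WT at 120 ppm, where 6.79% of all genes passed, Dbp rose by 3.42, in lungs where Ephx1 changed by -0.03. Whether the clock genes and Ephx1 are linked was not tested.

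Over the 42 planned comparisons of each gene, 0 of 84 passed in limma. By comparison, the share of all genes passing ran from 0% in several to 6.79% in WT at 120 ppm and 1 week. A comparison at 0% does not set this pair apart from other genes. Ephx1 had an unadjusted p under 0.05 in 4 of its 42 and Ephx2 in 0. The share of all genes at an unadjusted p under 0.05 ran from 2.1% to 20.5% by comparison.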

How the data were processed

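The authors deposited log2 expression values per probe set of an Affymetrix HT MG-430 PM array, for which the submitters' processing notes list the tools Partek and RMA without versions. Per the labels' protocols, RNA came from a Trizol step followed by RNeasy clean-up and was labelled from the 3' end. The table holds 45141 probe sets, of which 104 controls and those with several or no listed genes were left out. The brightest probe set stood for each of 17097 genes. limma 3.58.1 in R 4.3.3 fitted 18 group means to 90 arrays (72 residual degrees of freedom), and the fit was tested on simulated data. Promoter windows came from a RefSeq table (GRCm38.p6), which held Ephx1. Named genes were the pair, up to 3 members of a list by size among those that passed, Cyp2f2, Scgb1a1 and Nqo1, and the 5 genes most alike among those above the 40th percentile of mean level. Genes outside that rule (Gstm1 beside its pattern, members of short counts, marker genes, and Cox8b, Aoc3 and Thrsp) were chosen after their values were seen. Members and lists were chosen with earlier results of these data known. Alternatives were a second quantile normalization, dim genes left out, the mean over probe sets, array weights, a robust fit with an intensity trend, a fit to only those arrays being compared, low-weight arrays left out, a poly-A covariate (mean of 24 spike probe sets), a replicate block, and each animal left out. Marker covariates and strain averages were added after seeing the data. The labels call the 5 animals of a group biological replicates. The number of arrays limits the precision.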

Additional observations from a re-analysis of the deposited data

Results flagged for a closer look

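Among 36 groups of 5 (18 for each gene), 4 held 1 animal far from the rest by Dixon's criterion, where chance gives about 1 in 20. TG air at 1 week animal 5 was high for both genes, with 10.84 for Ephx1 (the nearest other was 10.42) and 6.36 for Ephx2 (nearest 5.27), and its array weight was 0.155. TG air at 4 weeks animal 3 read 6.19 for Ephx2 (nearest 4.94). KO 120 ppm at 4 weeks animal 5 read 4.74 for Ephx2, below the nearest at 5.17. Tests of the difference between strains or weeks passed for neither gene in the main fit.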

How the results depend on the processing

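Settings that brought an Ephx1 result past the threshold were as follows. The WT change at 120 ppm and 4 weeks was 0.32 with array weights and 0.38 with the type I alveolar covariate, which also gave 0.48 for its difference from 1 week. The KO control difference between weeks was -0.25 with the poly-A covariate. The strain average at 120 ppm and 4 weeks (0.23, not called) was called at 0.23 after a second quantile normalization and at 0.23 with dim genes left out, with an intensity trend, with low-weight arrays left out and with only the arrays compared. It was also called at 0.24 with array weights, 0.25 with poly-A adjustment, 0.26 with the adipocyte covariate and 0.23 with the type I covariate, and ran from 0.21 to 0.24 with 1 animal left out. No Ephx2 result was called under any setting run. Signs of uncalled values turned in 53 of 660 fits with 1 animal left out and 43 of 488 others for Ephx2, the largest being TG minus WT in the 120 ppm change at 1 week, from -0.51 to 0.02 with array weights. For Ephx1 they turned in 46 of 660 and 21 of 488, all of size under 0.10. Replicate numbers did not pair the animals: only 1 of 18 group pairs had all correlations above 0.1, and with a replicate block the WT change of Ephx1 at 120 ppm and 4 weeks was 0.33 (adjusted p = 0.22). Each gene had 1 probe set, so the alternative of other probe sets was not run.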
